A study of Mus musculus with 24 samples.

Results

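The 10 genes described here are the receptors and ligands through which embryonic vessels receive VEGF and angiopoietin signals. They were taken by symbol as the rows listed in all 4 deposited tables, 10 of the 26260 genes listed in any of them, and fall into 5 receptors (Kdr, Flt1, Flt4, Tek and Tie1) and 5 ligands (Vegfa, Vegfb, Vegfc, Angpt1 and Angpt2). Poly-A RNA of whole guts from mouse embryos at embryonic day 12.5 was sequenced from 6 guts each, 3 female and 3 male, of Ret null homozygotes, Sema3d null homozygotes, Ret-Sema3d double null homozygotes and wildtype embryos, all of mixed C57BL/6, 129/Sv and C3H strain. The study tested for a genetic interaction of Ret and Sema3d while the enteric nervous system forms. Ret encodes a tyrosine kinase through which enteric neural crest cells receive GDNF family signals, and Sema3d encodes a secreted semaphorin that guides axons and endothelial cells. The labels name no allele beyond these genotypes and no litter.

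VEGF receptors are tyrosine kinases carried mainly by endothelial cells. VEGF-A, released by many other cells of a growing organ, binds Kdr, the receptor that drives most vessel growth and permeability, and Flt1, which binds it tightly and largely restrains it. Flt4 is the receptor for VEGF-C in lymphatic and early blood vessels. The angiopoietins act on Tek, also called Tie2. Angpt1, made by mesenchymal cells and pericytes, activates Tek and stabilises vessels, whereas Angpt2 comes largely from endothelial cells themselves and activates or blocks Tek depending on context. Tie1 is a related endothelial receptor that pairs with Tek. Angpt2 is therefore the exception to a division into receptors made by vessels and ligands made by other cells.

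The deposited tables hold the authors' model fits, 1 for each null against wildtype over 12 guts and 1 over all 24 guts with a Ret by Sema3d interaction term. Values per gut and library depths are not known from them. Values after ± are standard errors derived from the deposited deviances, a level is a fitted level in normalised counts averaged over the sexes, and a gene was called where the authors' deposited adjusted p was below 0.05. Ret reached a level of 4.59 in Ret null guts and 1.14 in double null guts, against 1486 and 1497 in the wildtype guts of those comparisons. Sema3d reached 394 in Sema3d null and 390 in double null guts, against 823 and 801 in wildtype guts, so Sema3d transcript remained in these nulls. In Ret null guts Sema3d was also called lower, at 660 against 794 in wildtype guts. Its log2 change there was -0.27 ± 0.06 in the authors' deposited table (adjusted p = 8.82e-04 by the authors' DESeq fit). All 18 genes of the endothelial identity list and all 8 of the gut epithelium list were measured. In the list of 10 enteric neural genes 9 fell in Ret null guts, where 2.27% of all genes were called lower, and 0 fell in Sema3d null guts. All 10 fell in double null guts, where 1.87% of all genes were called lower. In whole-gut RNA a change in the number of endothelial cells and a change in RNA per endothelial cell cannot be told apart.

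The promoters of the 3 receptors that were called in double null guts are shown because these genes were higher together there. Each runs 5′ to 3′ from 250 bases before to 50 bases after the RefSeq start on GRCm38.p6, and all 3 lie on the minus strand. Capitals mark GGAA on either strand (GGAA or TTCC), the core motif bound by ETS transcription factors, a family known for its role in endothelial genes.
Flt1 promoter, chr5:147725962-147726261: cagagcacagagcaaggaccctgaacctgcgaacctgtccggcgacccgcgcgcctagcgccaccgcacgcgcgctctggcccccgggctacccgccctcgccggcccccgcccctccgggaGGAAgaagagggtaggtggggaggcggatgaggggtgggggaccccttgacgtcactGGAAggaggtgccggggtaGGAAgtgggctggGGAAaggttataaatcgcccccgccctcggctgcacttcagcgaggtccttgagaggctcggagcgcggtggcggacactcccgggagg
Kdr promoter, chr5:75978406-75978705: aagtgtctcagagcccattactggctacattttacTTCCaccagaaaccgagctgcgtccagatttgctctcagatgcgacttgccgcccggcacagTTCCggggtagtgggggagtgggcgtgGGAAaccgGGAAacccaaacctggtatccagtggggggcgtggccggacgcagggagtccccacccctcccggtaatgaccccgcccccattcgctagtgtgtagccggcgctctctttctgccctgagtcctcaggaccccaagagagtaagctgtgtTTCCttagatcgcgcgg
Tie1 promoter, chr4:118489800-118490099: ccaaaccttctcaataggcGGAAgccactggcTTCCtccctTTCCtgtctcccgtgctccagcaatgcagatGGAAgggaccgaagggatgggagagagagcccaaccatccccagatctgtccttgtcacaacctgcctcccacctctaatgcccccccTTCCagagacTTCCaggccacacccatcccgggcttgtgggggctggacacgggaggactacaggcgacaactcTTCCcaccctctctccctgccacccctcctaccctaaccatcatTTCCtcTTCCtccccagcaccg
The Tie1 promoter held 9 GGAA matches, a number reached by 1.59% of the 32851 RefSeq promoters of the same length. Kdr had 5 matches and Flt1 had 4, numbers reached by 28.6% and 46.3% of promoters. The windows of the other 2 receptors, Tek and Flt4, held 2 matches each, and 96.0% of all promoters held at least 1. ACGTG, the core of the hypoxia response element, was searched on both strands and was in none of the 5 receptor windows. It occurred once in 1 of the 2 Vegfa promoters and in 19.6% of all promoters. GATAA, the core bound by GATA factors, was searched in the same way and occurred once in the Tek window and once in the other Vegfa window, against 25.4% of all promoters. The 3 motifs can overlap one another by at most 1 base. RefSeq promoters were found for 8 of the 10 genes, all but Angpt1 and Angpt2.

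Among the receptors Kdr was the most abundant. Per kb of its longest annotated transcript, and in the 24-gut fit, Kdr had a fitted level of 205 normalised counts per kb in Ret null, 224 in Sema3d null and 254 in double null guts, against 222 in wildtype guts. Tie1 followed with 141, 149 and 167 per kb in Ret null, in Sema3d null and in double null guts and 136 per kb in wildtype guts. Flt1 had 65.0, 76.4 and 92.1 per kb in those nulls and 66.2 per kb in wildtype guts. Flt1 thus stood near Flt4 and Tek in Ret null and wildtype guts and above both in double null guts, as a description of fitted levels. Flt4 had 62.9, 66.6 and 74.1 per kb in the nulls and 63.8 per kb in wildtype guts. Tek, the lowest receptor, had 57.9, 60.8 and 67.3 per kb in the nulls and 59.5 per kb in wildtype guts.

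Per kb of transcript, the 2 highest genes of the family were ligands. Vegfa had a fitted level of 355 per kb in Ret null, 430 in Sema3d null and 411 in double null guts, against 338 per kb in wildtype guts. Vegfb, a VEGF that binds Flt1, had 313, 365 and 327 per kb in those nulls and 301 per kb in wildtype guts. Both ligands were highest in Sema3d null guts, where their errors are given with the comparison itself. Angpt1 had 83.8, 82.3 and 84.6 per kb in the nulls and 72.9 per kb in wildtype guts, and so lay at 113 to 116% of wildtype in all 3 nulls. Vegfc, the ligand of Flt4, lay between 55.6 and 60.3 per kb in the nulls, with 58.0 per kb in wildtype guts. Angpt2 was the lowest member, at 12.2 to 14.3 per kb in the nulls and 13.5 per kb in wildtype guts.

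In wildtype guts the order of levels per kb was Vegfa, Vegfb, Kdr, Tie1, Angpt1, Flt1, Flt4, Tek, Vegfc and Angpt2. From Angpt1 to Vegfc, each of these 5 genes and the next among them did not differ beyond an approximate error taken from the Ret null comparison. The other neighbours differed beyond that error, from a 1.12-fold step between Vegfa and Vegfb to a 4.31-fold step between Vegfc and Angpt2. The error leaves out the choice of transcript for each gene, on which levels per kb depend, so the order is a description.

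**Figure D1:**
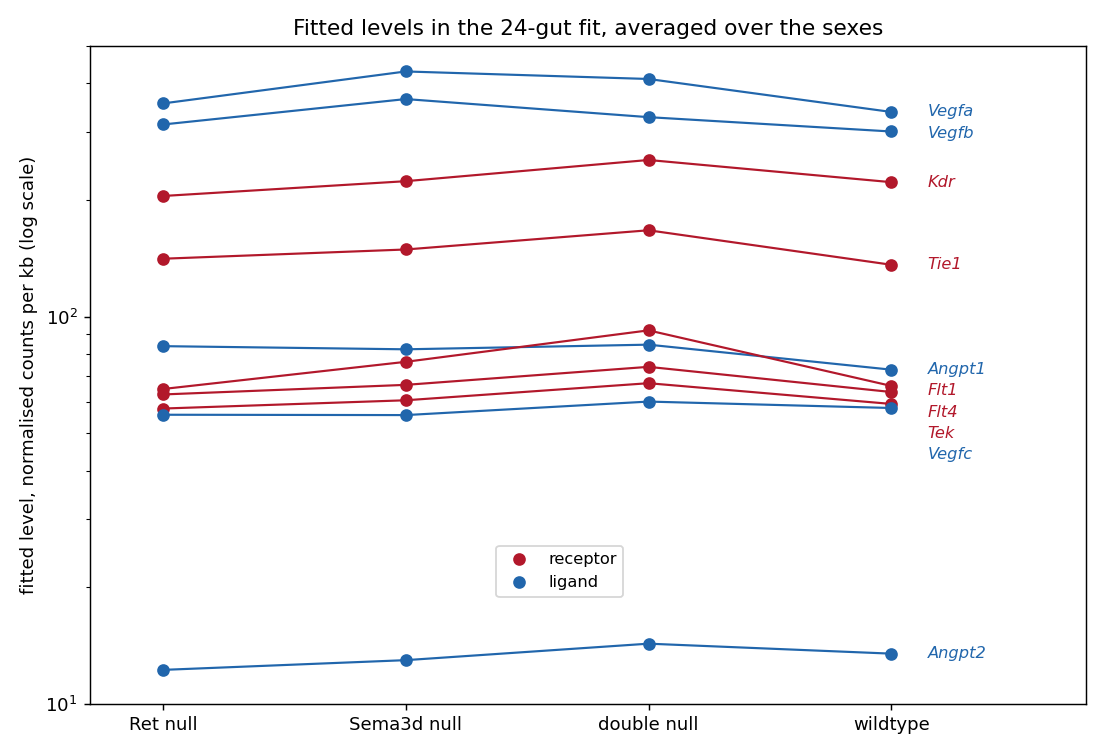
Fitted levels per kb of transcript (vertical, log scale) in Ret null, Sema3d null, double null and wildtype guts, from the 24-gut fit; each point is 1 gene in 1 genotype, with no error bar because the tables hold fits and no values per gut. The 5 receptors (red) are each highest in double null guts, while Vegfa and Vegfb (blue) are highest in Sema3d null guts.

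Loss of Ret alone was examined in Ret null against wildtype guts, and 0 of the 10 genes were called. The authors' deposited table called 2.66% of its 24602 genes, but 0 of 5 receptors and 0 of 5 ligands. At an unadjusted p below 0.05, which 8.43% of genes reached in the authors' DESeq fit, the count was also 0 of 10. Kdr (ENSMUSG00000062960.10; chromosome 5, 75932827 to 75978458, minus strand, GRCm38) came nearest, with a level of 1184 in Ret null guts and 1286 in wildtype guts. Its log2 change in the authors' deposited table was -0.12 ± 0.06 (95% interval -0.24 to 0.0031; unadjusted p = 0.0562, adjusted p = 0.629 by the authors' DESeq fit). Flt1 had a level of 437 in Ret null guts and 445 in wildtype guts, and Tie1 had 583 in Ret null and 562 in wildtype guts. The 5 receptors had log2 changes from -0.12 to 0.05 in the authors' deposited table, with 1 of 5 above 0. Their median was -0.03, against 0.0079 over the 12235 genes with a level of at least 50.

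The ligands varied more widely in Ret null guts, with larger errors. Angpt1 had a level of 349 in Ret null and 303 in wildtype guts, a log2 change of 0.20 ± 0.15 in the authors' deposited table. Vegfa was at 1195 in Ret null and 1136 in wildtype guts (0.07 ± 0.08 in the authors' deposited table). Angpt2, the only member with a level under 50 in each 12-gut table, was at 42.5 in Ret null guts and 46.6 in wildtype guts. The ligand median was 0.06, and 3 of 5 ligands lay above 0. Summed over the 5 genes, receptor levels were 2849 in Ret null guts and 2954 in wildtype guts, a difference of -3.53%. The ligand sums were 2112 in Ret null and 2000 in wildtype guts, a difference of 5.59%. In the same guts the enteric neural list had a median log2 change of -3.35, and the 18 endothelial identity genes had a median of 0.04 with 0 called.

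Loss of Sema3d alone was examined in Sema3d null against wildtype guts, and again 0 members were called. The authors' deposited table called only 0.0404% of its 24747 genes, so 0 of 5 receptors and 0 of 5 ligands stood beside a background close to 0. Vegfb was the 1 member of 10 with an unadjusted p below 0.05, against 4.53% of genes in the authors' DESeq fit. Vegfb (ENSMUSG00000024962.13; chromosome 19, 6982473 to 6987651, minus strand) was at 474 in Sema3d null guts, against 390 in wildtype guts. Its log2 change in the authors' deposited table was 0.28 ± 0.12 (unadjusted p = 0.0177, adjusted p = 0.962 by the authors' DESeq fit). Centred on genes of like transcript length, the Vegfb change was smaller, at 0.16 with the same error. Vegfa (ENSMUSG00000023951.16; chromosome 17, 46016993 to 46032369, minus strand) was at 1500 in Sema3d null and 1187 in wildtype guts. That difference was within its error, with a log2 change of 0.34 ± 0.37 in the authors' deposited table and a 95% interval from -0.40 to 1.07. Angpt1 was at 355 in Sema3d null and 315 in wildtype guts, and Vegfc was at 138 in Sema3d null and 144 in wildtype guts.

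The receptor median lay closer to 0 than the ligand median, but centred on genes of like transcript length the medians were 0.14 for the receptors and 0.16 for the ligands, and the difference was not tested. Kdr was at 1344 in Sema3d null guts and 1333 in wildtype guts, a log2 change of 0.01 ± 0.09 in the authors' deposited table. Tie1 was at 640 in Sema3d null and 583 in wildtype guts (0.13 ± 0.10 in the authors' deposited table). Flt1 was at 533 in Sema3d null guts and 464 in wildtype guts, and its log2 change of 0.20 ± 0.31 in the authors' deposited table has an error larger than the change. All 5 receptors lay above 0 with a median of 0.06, against 0.17 for the ligands and 0.0030 over 12372 genes with a level of at least 50. The receptor sums were 3225 in Sema3d null and 3066 in wildtype guts, 5.18% higher in Sema3d null guts. The ligand sums were 2514 in Sema3d null and 2084 in wildtype guts, 20.6% higher in Sema3d null guts, with Vegfa making up most of that difference.

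Flt1 and Vegfa stood apart in the Sema3d null comparison by their errors. The derived error of Vegfa was 4.43 times that in the Ret null comparison, a ratio exceeded by 0.0902% of 12191 genes. For Flt1 the ratio was 3.32, exceeded by 0.369% of genes, while the other 8 members had ratios from 1.02 to 1.59 and all genes had a median of 1.43. The hypoxia response list holds regulators and targets of the hypoxia-inducible factors, without Vegfa and Flt1, and 10 of its 20 genes had a ratio above 3. Such a ratio was found in 0.714% of all genes and in 0 of 18 endothelial identity genes. Bnip3, a hypoxia-induced mitochondrial protein, had the largest ratio on the list at 7.39, and the glucose transporter gene Slc2a1 had 5.19. The list had 0 of 20 genes called in Sema3d null guts and 17 above 0, with a median log2 change of 0.31. The errors of Vegfa and Flt1 were also larger in the double null than in the Ret null comparison, by less. Ratios above theirs were found there in 0.738% of genes for Vegfa and in 3.01% for Flt1. The hypoxia response list had a median ratio of 1.31 there, against 1.02 over all genes. Whether single guts set the errors in either comparison was not tested.

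**Figure D2:**
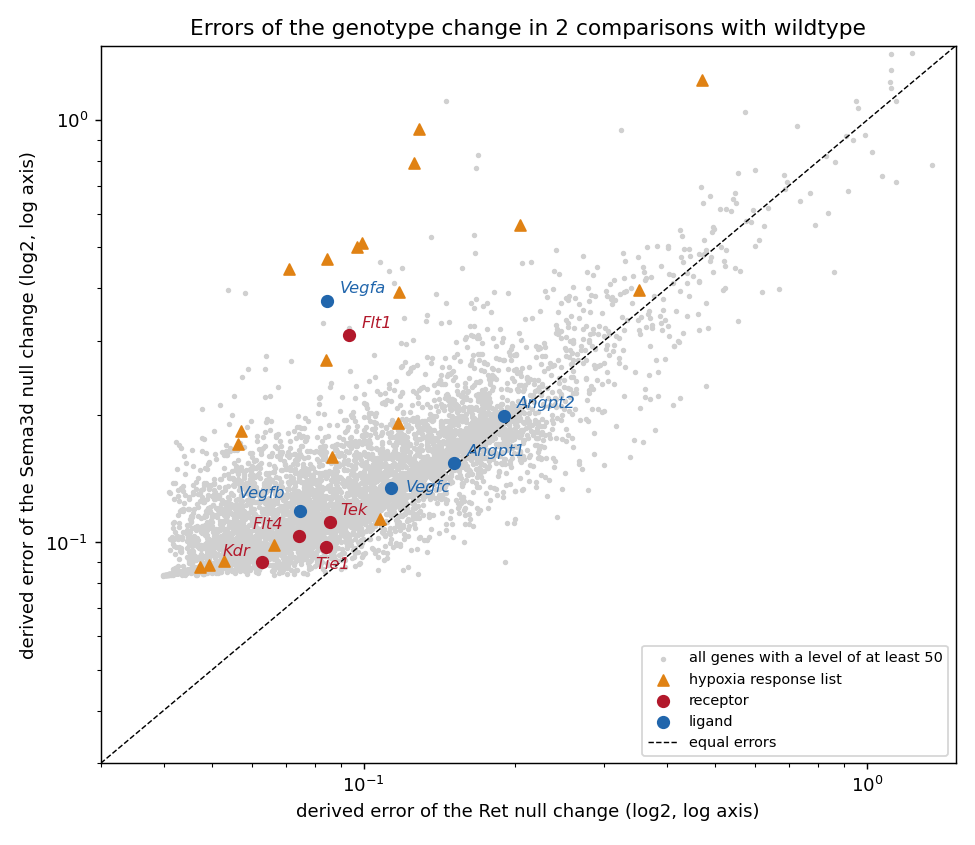
Derived standard error of the log2 change in the Sema3d null comparison (vertical) against that in the Ret null comparison (horizontal), both on log axes; grey points are genes with a level of at least 50, and the dashed line marks equal errors. Vegfa and Flt1 lie with 10 hypoxia response genes (orange triangles) at ratios above 3, while the other 8 members lie within the cloud of all genes.

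In double null guts 3 of the 5 receptors rose and 0 of the 5 ligands were called. Flt1, Tie1 and Kdr were the receptors called higher, at 1.38-fold, 1.23-fold and 1.14-fold of wildtype, and Flt4 and Tek were not called. The authors' deposited table called 0.231% of its 24663 genes higher and 1.87% lower, against 3 of 10 members higher and 0 lower. At an unadjusted p below 0.05 in the authors' DESeq fit, 4 receptors and 1 ligand were higher, against 2.72% of genes. All 10 members had a log2 change above 0, as did 53.0% of the 12268 genes with a level of at least 50. The 3 comparisons share the same 6 wildtype guts.

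Flt1 (ENSMUSG00000029648.13; chromosome 5, 147561604 to 147726011, minus strand) had the largest change of the 10 genes. It reached a level of 623 in double null guts, against 450 in wildtype guts. The log2 change was 0.47 ± 0.12 in the authors' deposited table (1.38-fold, 95% interval 1.17 to 1.63; adjusted p = 0.00719 by the authors' DESeq fit). An increase larger than that of Flt1 was found in 0.579% of the genes with a level of at least 50. Tie1 (ENSMUSG00000033191.14; chromosome 4, 118471191 to 118490061, minus strand) reached 696 in double null guts, against 566 in wildtype guts. Its log2 change was 0.30 ± 0.07 in the authors' deposited table (1.23-fold, interval 1.11 to 1.36; adjusted p = 0.00295 by the authors' DESeq fit), and 1.90% of genes exceeded it. Kdr reached 1479 in double null guts, against 1296 in wildtype guts, and had the smallest error of the 10 genes. Its log2 change was 0.19 ± 0.05 in the authors' deposited table (1.14-fold, interval 1.06 to 1.23; adjusted p = 0.0208 by the authors' DESeq fit), and 5.62% of genes exceeded it. With the stricter Holm adjustment over all genes, 0 of these 3 calls were left. Centred on genes of like transcript length, Kdr had 0.17 and was no longer called.

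Flt4 and Tek, the receptors of VEGF-C and of the angiopoietins, had positive changes without being called. Flt4 (ENSMUSG00000020357.3; chromosome 11, 49609263 to 49652739, plus strand) was at 456 in double null and 393 in wildtype guts. Its log2 change was 0.22 ± 0.08 in the authors' deposited table (unadjusted p = 0.00740, adjusted p = 0.240 by the authors' DESeq fit). Tek (ENSMUSG00000006386.15; chromosome 4, 94739289 to 94874976, plus strand) was at 308 in double null guts and 272 in wildtype guts. Its log2 change was 0.18 ± 0.10 in the authors' deposited table (unadjusted p = 0.0673, adjusted p = 0.849 by the authors' DESeq fit). Both changes were close to that of Kdr in size, and the error of Kdr was smaller. The receptor median was 0.22, against 0.0058 over all genes with a level of at least 50. Sema3d lies on chromosome 5, as do Kdr, 63.3 Mb away, and Flt1, 135 Mb away, whereas Tie1, Tek and Flt4 lie on other chromosomes.

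Of the ligands in double null guts, Vegfa was at 1389, against 1145 in wildtype guts. Its log2 change was 0.28 ± 0.14 in the authors' deposited table (unadjusted p = 0.0392, adjusted p = 0.673 by the authors' DESeq fit), close in size to that of Tie1 with a larger error. Angpt1 (ENSMUSG00000022309.8; chromosome 15, 42424723 to 42676977, minus strand) was at 355 in double null guts and 306 in wildtype guts, a log2 change of 0.21 ± 0.16 in the authors' deposited table. Vegfb was at 412 in double null guts, against 379 in wildtype guts. Vegfc (ENSMUSG00000031520.6; chromosome 8, 54077606 to 54187096, plus strand) was at 145 in double null and 140 in wildtype guts. Angpt2 (ENSMUSG00000031465.6; chromosome 8, 18690263 to 18741562, minus strand) was at 49.9 in double null and 47.5 in wildtype guts, with a 95% interval of the log2 change from -0.52 to 0.66. These 5 ligands had a median of 0.12.

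Summed levels were 3562 in double null and 2976 in wildtype guts for the receptors, 19.7% higher in double null guts. For the ligands they were 2351 in double null and 2016 in wildtype guts, 16.6% higher in double null guts. The errors of the ligands had a median of 0.14, against 0.08 for the receptors. Whether receptors and ligands differed in their changes was not tested.

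**Figure D3:**
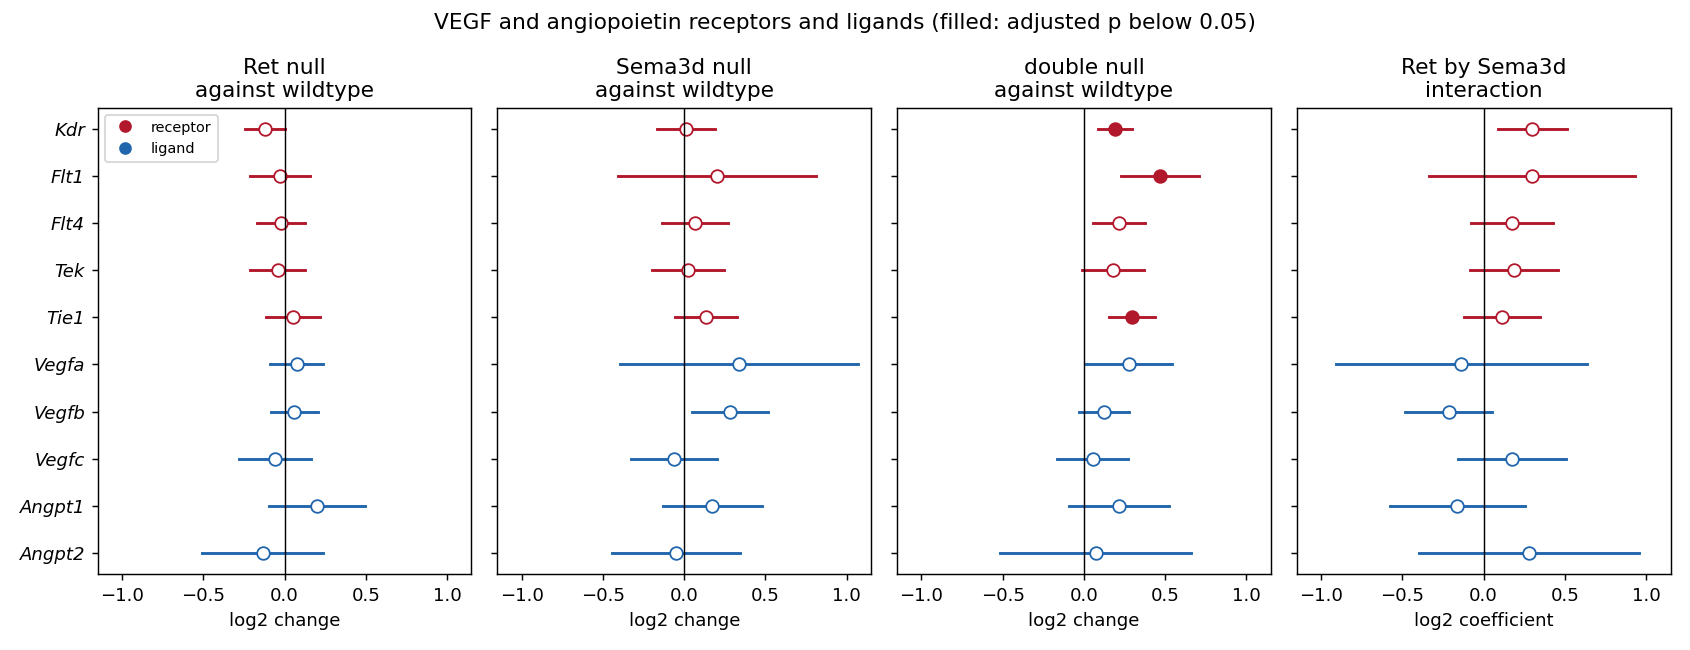
Log2 change (horizontal) of each receptor (red) and ligand (blue) for Ret null, Sema3d null and double null against wildtype, and the interaction coefficient of the 24-gut fit; bars are 95% intervals from the derived errors (6 guts per genotype), and filled points had an adjusted p below 0.05. Filled points are Kdr, Flt1 and Tie1 in double null guts, and the bars of Vegfa and Flt1 are the widest in Sema3d null guts.

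**Figure D4:**
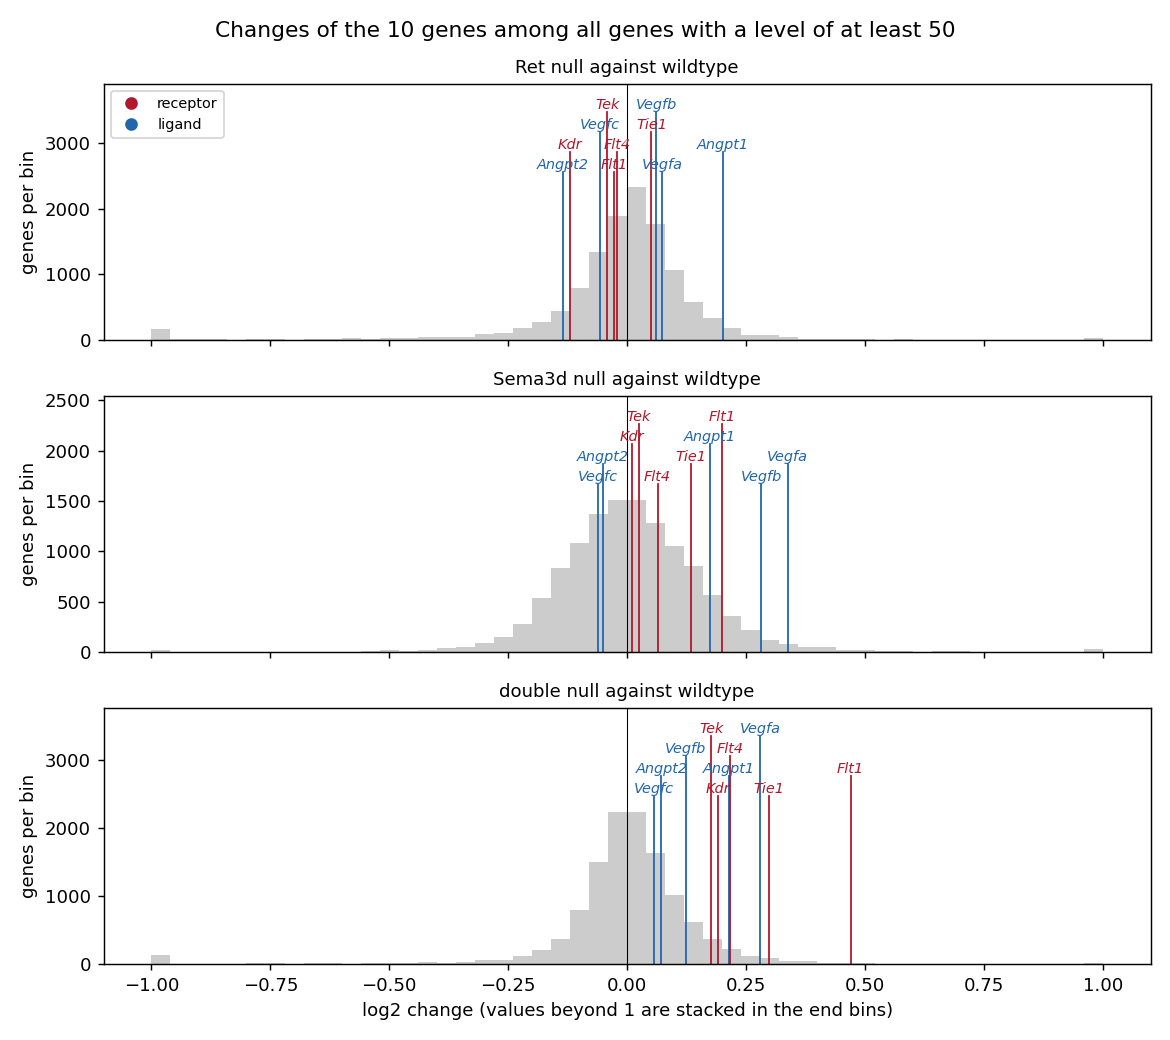
Histogram of log2 changes over all genes with a level of at least 50 (grey, genes per bin) for Ret null, Sema3d null and double null against wildtype, with a line at each receptor (red) and ligand (blue). The lines spread about 0 in Ret null guts and all lie to its right in double null guts, where Flt1 is at 0.47 and Tie1 at 0.30.

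The receptors were set beside other endothelial genes because vessels make both. Of 18 endothelial identity genes 7 rose and 0 fell in double null guts, all 18 lay above 0, and 12 had an unadjusted p below 0.05. Over all genes there, 0.231% were called higher and 2.72% were higher at an unadjusted p below 0.05. Cdh5, the cadherin of endothelial junctions, reached 1941 in double null guts, against 1596 in wildtype guts, a log2 change of 0.28 ± 0.06 in the authors' deposited table. Pecam1, an adhesion molecule of endothelial cells, changed by 0.29 ± 0.06 in the authors' deposited table, and Mmrn2, an endothelial matrix protein, by 0.36 ± 0.09. The others that rose were Plvap, Ecscr, Icam2 and Esam, with log2 changes from 0.22 to 0.43 in the authors' deposited table. The list median was 0.26, against the receptor median of 0.22, and its summed level was 19.5% higher in double null guts, against 19.7% for the receptors. Relative to the list median, the log2 changes of Flt1, Tie1 and Kdr in double null guts were 0.21, 0.04 and -0.06. Whether the receptors changed apart from other endothelial genes was not tested.

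In the single nulls the receptor medians also lay below the endothelial ones. In Sema3d null guts all 18 endothelial genes lay above 0 with a median of 0.19, against a receptor median of 0.06. Of the 18, 0 were called and 6 had an unadjusted p below 0.05, against 4.53% of genes in the authors' DESeq fit. Centred on genes of like transcript length, the receptor median in Sema3d null guts was 0.14. The endothelial genes were not centred in this way, and the difference was not tested. The endothelial sum was 7757 in Sema3d null guts and 6827 in wildtype guts. Eng, a TGF-beta co-receptor of endothelial cells, had the smallest p of the list, with a log2 change of 0.25 ± 0.09 in the authors' deposited table (adjusted p = 0.829 by the authors' DESeq fit). In Ret null guts 15 of 18 endothelial genes lay above 0 with a median of 0.04, against -0.03 for the receptors. Of the 5 receptors, 1 in Ret null, 1 in Sema3d null and 2 in double null guts lay above the endothelial median.

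Other cell types of and around vessels gave few calls. In the lymphatic endothelium list 0 of 5 genes were called in any comparison. The list medians were -0.14 in Ret null guts with 1 gene above 0, -0.0090 in Sema3d null guts with 2 and 0.21 in double null guts with 3. In the authors' deposited table Prox1, the transcription factor of lymphatic identity, had a log2 change of -0.27 ± 0.11 in Ret null guts. In double null guts Pdpn, a membrane glycoprotein of lymphatic endothelium, had -0.25 ± 0.10 and Mmrn1, a secreted protein of the same cells, had 0.21 ± 0.11 in the authors' deposited table. In the pericyte list 0 of 7 genes were called in any comparison. The genes above 0 were 3 in Ret null guts with a list median of -0.05, 5 in Sema3d null guts with 0.09 and 7 in double null guts with 0.09. Its members differed in sign in Ret null guts, where Rgs5, a signalling regulator of pericytes, had a log2 change of 0.31 ± 0.10 and Abcc9, a potassium channel subunit, had -0.30 ± 0.10 in the authors' deposited table. In double null guts Rgs5 had 0.47 ± 0.17 in the authors' deposited table. The macrophage, smooth muscle and mesenchyme, gut epithelium and erythroid lists had 0 genes called in the 3 comparisons with wildtype. At an unadjusted p below 0.05 in Ret null guts, 4 of 6 macrophage and 4 of 10 smooth muscle and mesenchyme genes were counted. The gut epithelium and erythroid lists had 0 there, against 8.43% of genes in the authors' DESeq fit. The macrophage median in Ret null guts was -0.24, and that of smooth muscle and mesenchyme was -0.04. The mesothelium list had 1 of 5 called, Aldh1a2, a retinoic acid synthesis enzyme, with a log2 change in Ret null guts of 0.28 ± 0.08 (the authors' deposited table). Over all genes 2.66% were called in Ret null guts.

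**Figure D5:**
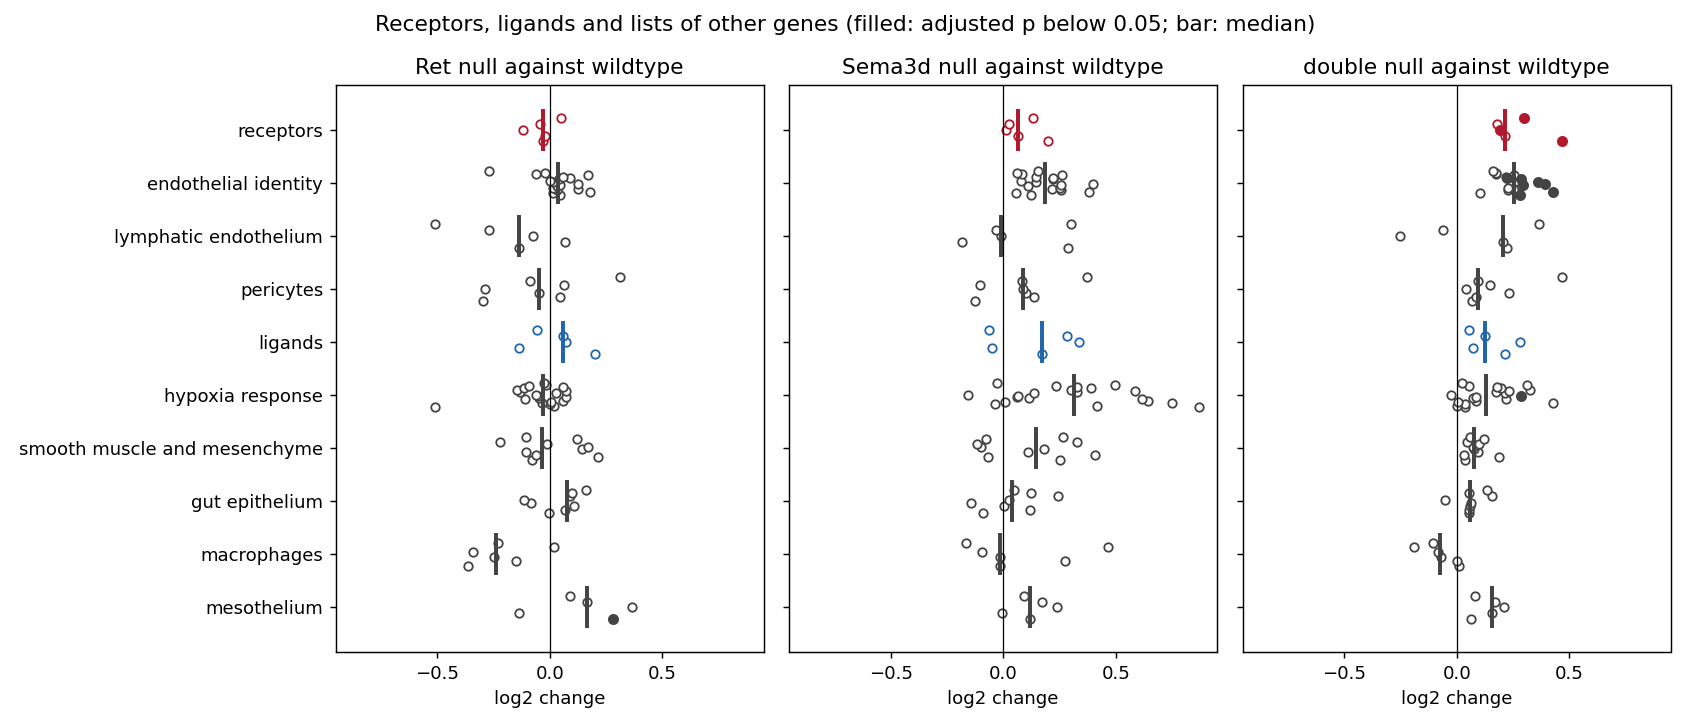
Log2 changes (horizontal) of the 5 receptors (red), the 5 ligands (blue) and the genes of 8 other lists (grey) for Ret null, Sema3d null and double null against wildtype; each circle is 1 gene, the bar is the median of the list, and filled circles had an adjusted p below 0.05. In double null guts all 5 receptors and all 18 endothelial identity genes lie to the right of 0, with 3 and 7 filled circles.

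Other genes of the VEGF and angiopoietin pathway, 20 in all, gave 2 calls in Ret null guts, where 2.66% of all genes were called. Nrp2, a co-receptor for VEGF-C and for class 3 semaphorins, rose to 5828 in Ret null guts, against 5185 in wildtype guts (0.17 ± 0.04 in the authors' deposited table, adjusted p = 0.00502). Nrp1, a co-receptor for VEGF-A and semaphorins that endothelial and neural cells carry, fell to 1771 in Ret null guts, against 2097 in wildtype guts (-0.24 ± 0.05 in the authors' deposited table, adjusted p = 2.03e-04). In Sema3d null guts 0 of 20 were called, and 0 had an unadjusted p below 0.05 in the authors' DESeq fit. In double null guts, where 0.231% of all genes were called higher, 1 of 20 rose and 0 fell. It was Plxnd1, the endothelial plexin that is a receptor for Sema3e, which reached 3816 in double null guts, against 3278 in wildtype guts (0.22 ± 0.05 in the authors' deposited table, adjusted p = 2.97e-04). Ptprb, the endothelial phosphatase that acts on Tek, was at 472 in double null and 373 in wildtype guts (0.34 ± 0.11 in the authors' deposited table, adjusted p = 0.111). Of the 20 genes 16 lay above 0 in double null guts, with a median of 0.13.

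In the hypoxia response list 1 of 20 genes rose in double null guts, where 0.231% of all genes were called higher, and 0 fell. It was Epas1, which encodes an endothelial hypoxia-inducible factor subunit and reached 560 in double null guts, against 460 in wildtype guts (0.28 ± 0.07 in the authors' deposited table, adjusted p = 0.00269). The list median was 0.13 in double null guts, with 19 of 20 genes above 0, and Vegfa, a target of these factors that the list leaves out, had 0.28 ± 0.14 in the authors' deposited table. The share of the hypoxia response in the Vegfa and Flt1 values was not tested.

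The 24-gut fit allowed the double null to be set beside the single nulls and beside their sum. Relative to Ret null guts, fitted levels of the receptors in double null guts were higher by 0.22 (Tek) to 0.50 (Flt1) on the log2 scale, with a median of 0.24. Relative to Sema3d null guts they were higher by 0.15 to 0.27, with a median of 0.16. These values were not centred on transcript length. Centred on genes of like transcript length, the receptor medians against wildtype lay closer together, at 0.14 in Sema3d null and 0.20 in double null guts. The ligand medians were 0.11 against Ret null guts, with 5 of 5 above 0, and 0.04 against Sema3d null guts, with 3 of 5 above 0. Vegfb was lower in double null than in Sema3d null guts by a log2 difference of -0.16, also not centred on transcript length. So centred, its change against wildtype was 0.16 in Sema3d null and 0.14 in double null guts, so most of that difference was not left. No error could be derived for the differences between double null and single null guts, so none was tested.

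The interaction coefficient is the log2 change of the double null minus the sum of the changes of both single nulls. The authors' deposited table called it in 0.164% of 26258 genes and in 0 of the 10 members. At an unadjusted p below 0.05 in the authors' DESeq fit, 1 of 10 members was counted, against 6.79% of genes. That member was Kdr, with a coefficient of 0.30 ± 0.11 in the authors' deposited table (unadjusted p = 0.00607, adjusted p = 0.405 by the authors' DESeq fit). In the 24-gut fit Kdr had log2 changes of -0.12 in Ret null, 0.01 in Sema3d null and 0.19 in double null guts, so the double null lay above both single nulls. Flt1 had a coefficient of the same size, 0.30 ± 0.32 in the authors' deposited table, with an error close to 3 times as large. The coefficients of the other receptors were 0.18 ± 0.13 for Flt4, 0.19 ± 0.14 for Tek and 0.11 ± 0.12 for Tie1 in the authors' deposited table. All 5 receptors had positive coefficients with a median of 0.19, against -0.0012 over 12418 genes with a level of at least 50. Medians of genes matched in transcript length to the 10 members ran from -0.17 to 0.12. Centred on these, the receptor median was 0.11, with Kdr at 0.18, Flt1 at 0.18 and Flt4 at 0.057.

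The ligands did not share one sign in the interaction. Vegfb had a coefficient of -0.22 ± 0.14, Vegfa of -0.14 ± 0.39 and Angpt1 of -0.16 ± 0.21 in the authors' deposited table. Vegfc had 0.17 ± 0.17 and Angpt2 had 0.28 ± 0.35 there. The 95% interval of each of the 5 included 0, and the ligand median was -0.14. Centred on genes of like transcript length, the ligand median was -0.049. Vegfb then had -0.049, Vegfa -0.15, Angpt1 -0.20, Vegfc 0.22 and Angpt2 0.27. The sum of the single-null changes had a median of 0.04 over the receptors, against 0.22 for the double null, and of 0.34 over the ligands, against 0.12. Among the 20 other pathway genes 0 were called for the interaction and 15 had positive coefficients. Adamts3, a protease that processes VEGF-C, had the smallest p of them, with 0.48 ± 0.17 in the authors' deposited table (adjusted p = 0.358). The 18 endothelial identity genes had a median interaction coefficient of 0.02 with 10 above 0, and all 5 receptors lay above that median. Neither side is centred on transcript length here. So centred, the receptor median was 0.11, the endothelial genes were not centred in this way, and the difference was not tested.

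The genes whose changes lay nearest to the mean of the 5 receptors were sought over the 3 null genotypes of the 24-gut fit. That mean was -0.03 in Ret null, 0.09 in Sema3d null and 0.27 in double null guts on the log2 scale. Among 12172 genes with a wildtype level of at least 50, the nearest by Euclidean distance were Tm6sf1 at 0.026, Inpp5d at 0.029, Epas1 at 0.030, Usp35 at 0.036 and Myct1 at 0.038. The receptors themselves lay 0.062 (Flt4) to 0.237 (Flt1) from their mean. Epas1 and Myct1 are also on the hypoxia response and endothelial identity lists. Inpp5d encodes a lipid phosphatase known from blood cells. This likeness rests on 3 fitted values per gene and is a description.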

How the data were processed

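Poly-A RNA-seq of 24 guts (12 per comparison with wildtype) was deposited as 4 tables of model fits, with no values per gut, so library depth is unknown and p-values measure the spread between guts as the authors' model fitted it. Per the submitters' processing notes, the tools included DESeq 1.24.0, RSEM 1.2.31, STAR, Trimmomatic 0.36 and FastQC 0.11.5, on build GRCm38. The authors deposited log2 coefficients of intercept, sex and genotype, deviances used here as a score of fit, and p-values with adjusted p-values of the genotype or interaction term. Coefficients of the interaction table were read as log2 too, although the deposited column holds values beyond the log range and was entered as a score; 2756 of its 26260 genes had unbounded or unconverged fits and were left out of medians and levels. The headers give no base; wildtype levels summed to 11.6 to 12.0 mega-counts (normalised) per table in base 2 and to 432 to 458 in the natural base, and base 2 was used. In the Ret null table the exchanged headers of symbol and gene type were read by content.

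From these, Python 3.11.15 with numpy 2.4.6, pandas 2.3.3 and scipy 1.17.1 computed errors (coefficient over the square root of the deviance difference; tested on simulated data), 95% intervals and fitted levels. The p-values deposited match a chi-square test of the deviance difference within 4.91e-09. All comparisons use the authors' test, fitted over the whole table, with sex as a covariate; the planned count test and the leaving out of guts need values per gut and were not run. Transcript lengths and coordinates are from GENCODE M21 (GRCm38), which held all 10 genes, 8 of them with the same identifier version; promoters are from RefSeq. The 10 genes, the 11 lists (115 genes) and the rules for naming genes were chosen with earlier results of these data known. Named were the 10 members, Ret and Sema3d, called genes and up to 4 smallest p-values of each list, and the 5 genes nearest to the receptor mean. Bnip3, Slc2a1 and Ptprb were named after their values were seen. Alternatives were other thresholds, adjustments, centrings and the 24-gut coefficients.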

Additional observations from a re-analysis of the deposited data

How the results depend on the processing

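No paired analysis was possible because the deposited tables hold model fits and no values per gut. The leaving out of each gut in turn was not run for the same reason. A Holm adjustment over the whole table left 0 members and 0 receptors called in double null guts, against 3 and 3, and a threshold of 0.01 left 2 receptors, Flt1 and Tie1. Another centring was chosen after seeing the data, on the median change of the 18 endothelial identity genes. It moved the receptor and ligand medians to -0.12 and -0.012 in Sema3d null guts and to -0.039 and -0.13 in double null guts. Under it Kdr had -0.064, Flt1 0.21 and Tie1 0.04 in double null guts, all 3 no longer past the threshold by the normal tail of each value over its derived error, adjusted over all genes. It also turned the sign of changes that were not called. In double null guts these were Flt4 (-0.039), Tek (-0.078), Vegfb (-0.13), Vegfc (-0.20), Angpt1 (-0.041) and Angpt2 (-0.18). In Sema3d null guts they were Kdr (-0.17), Flt4 (-0.12), Tek (-0.16), Tie1 (-0.051) and Angpt1 (-0.012). By construction this centring subtracts the endothelial change of 0.26. Centring among genes of like transcript length left Kdr at 0.17, just short of the threshold by the same measure, and the cause was not tested. Centring among genes of like level put Tek in Sema3d null guts at -0.0068, against 0.02. The other 174 values of single genes kept their direction and, where a p was computed, their side of the threshold, and 80 counts and medians moved by less than the error or, for counts, by at most 1 gene. The depth limit on each gene is unknown, and Angpt2, at levels of 42.5 to 49.9, had errors of 0.19 to 0.30.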

Other observations

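The sex coefficients of the 10 genes, which carry no deposited p-value, are given as description only. They are log2 differences of male over female guts, adjusted for genotype, in the authors' deposited tables. In the 24-gut fit they ran from -0.31 for Angpt2 to 0.12 for Vegfa, with 4 of 10 above 0 and a median of -0.05. The 5 receptors lay between -0.09 (Tek) and 0.04 (Flt1) in that fit. In the Sema3d null comparison Vegfa had 0.28, Flt1 0.21 and Tek -0.25. The median size over the 10 genes there was 0.13, against 0.06 over all genes with a level of at least 50. Vegfa and Flt1 are also the members with the enlarged errors in that comparison, and a part of single guts in either value was not tested. In the double null comparison Angpt2 had the lowest coefficient of the 10, at -0.42, and its derived error of the genotype change there was 1.58 times that in the Ret null comparison.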
